A study of Mus musculus with 2 samples.

Results

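The genes described here encode 49 enzymes and enzyme subunits that add or remove methyl groups on histones and DNA. They were taken from a list of names, and all 49 were among the 15593 genes tested, each listed in both libraries. The RNA came from thioglycollate-elicited peritoneal macrophages, cells that an injected irritant recruits to the peritoneum and that were kept because they adhered to the dish. The mice were wild-type C57BL/6, aged 6 to 8 weeks per the methods of the study, and one label field gives the tissue as bone marrow. Cells of both groups adhered for 4 h and were starved in medium with 0.5% serum. They were then left nontreated (NT) or given the M2-polarizing cytokine interleukin-4 (IL-4) over 6 h. Thioglycolate (4%) had been injected 4 to 5 days before harvest. Each group held 1 library, and neither the number of mice pooled nor their sex was given, so no difference below was checked against a spread between replicates.

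Methylation of lysines in the histone tails marks chromatin states. Methyl groups on lysine 4 of histone H3 (H3K4) accompany active promoters and enhancers, those on H3K36 accompany transcribed gene bodies, and those on H3K9 and H3K27 accompany silenced chromatin. SET domain methyltransferases write these marks, and the LSD and Jumonji C (JmjC) demethylases remove them. DNA methyltransferases (DNMTs) place methyl groups on cytosine, and TET dioxygenases oxidize them. In macrophages these enzymes set which enhancers and promoters respond to a stimulus, and the H3K27 demethylase Kdm6b (Jmjd3) is known for its part in inflammatory and M2 gene expression.

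The libraries held 11035641 (NT) and 11250099 (IL-4) expected counts, the number of reads that RSEM assigns to a gene. The M2 response was present, with 8 of 8 M2 genes called higher and a median log2 ratio of 4.35. The 8 macrophage markers were all listed and ran from Fcgr1, at 6.59 FPKM in NT and 5.02 FPKM in IL-4, to Lyz2, at 11289 and 10811 FPKM (fragments scaled for transcript length and depth, the unit in which genes are compared with each other). Of these, Csf1r was called higher, from 144.57 to 270.38 FPKM, and Cd14 lower, from 65.96 to 31.35 FPKM. Resident peritoneal macrophage markers summed to 7.97 CPM (counts scaled to the library total) in NT and 11.02 CPM in IL-4, with none of the 3 called. The summed markers of B, T and mast cells ran from 0.548 to 6.89 CPM in the 2 libraries. Of the neutrophil and adipocyte lists, only S100a8 (35 and 21 counts) and Adipoq (0 and 139 counts) were listed. Adipoq was called higher, at 12.4 CPM in IL-4, and S100a8 was not called. Mesothelial markers summed to 4.17 CPM in NT and 3.02 CPM in IL-4, with Msln called lower, and eosinophil markers to 4.80 and 2.49 CPM, with Siglecf called lower. The part of other cells in the results below was not tested. Fewer cells of a type and less RNA per cell cannot be told apart in such bulk samples.

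Upon IL-4 stimulation, 10 of the 49 genes were called lower and 0 were called higher. Following the study's thresholds, a gene was called if its log2 ratio (IL-4 over NT) reached 0.75 in either direction, with an exact p up to 0.05 and a Benjamini-Hochberg (BH) value up to 0.5. Of all genes tested, 6.28% were called lower and 4.07% were called higher. The exact binomial test compares the reads of the 2 libraries and not the conditions, and its intervals cover counting error only. The 10 genes were Kmt2a, Kmt2c, Kmt2d, Setd1b, Setd7, Prdm2, Suv39h2, Kdm5b, Tet3 and Dnmt1. They encode 5 proteins of the H3K4 methyltransferase list, 2 of the H3K9 methyltransferase list, an H3K4 demethylase, a TET dioxygenase and the maintenance DNA methyltransferase. Across the 49 genes the median was -0.29 on the log2 scale, against -0.03 over all genes tested.

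Most of these transcripts are long, and long transcripts as a class had lower ratios in this comparison. By median length, the 49 genes stood at 5918 bases and all genes tested at 2707 bases. Of the 961 genes at least as long as the median enzyme gene and with at least 200 reads, 21.4% were called lower, and their median log2 ratio was -0.41. Of the 25 enzyme genes of that length, 8 were called lower, and their median was -0.60. Ratios were therefore also computed with the length trend subtracted, that is, less the median for the 300 genes closest to it in length. Only Setd1b was then called lower and 0 genes were called higher, against 4.88% and 4.05% of all genes tested. After this subtraction the 49 genes had a median of -0.05. With 1 library a group, a difference in the handling of long RNA between the libraries and a response to IL-4 cannot be told apart.

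**Figure D1:**
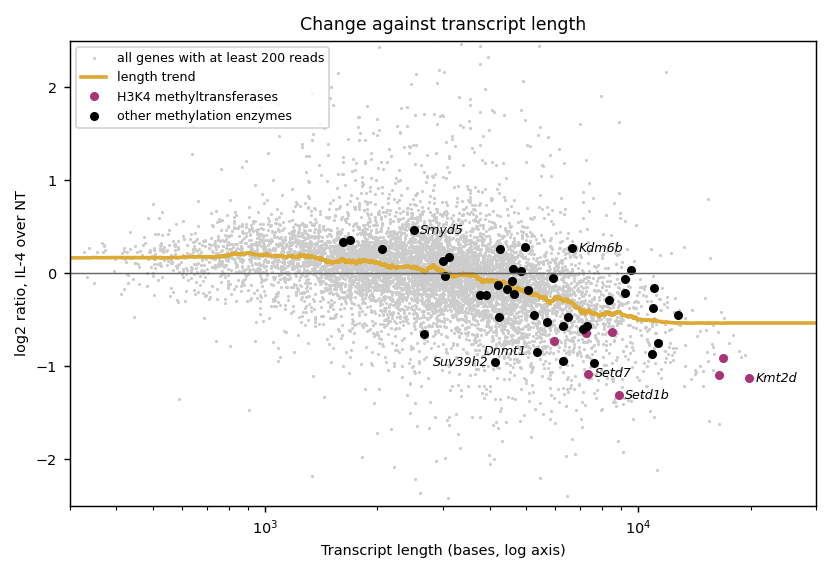
Log2 ratio of IL-4 over NT (y axis) against transcript length in bases (x axis, log scale) for 8461 genes with at least 200 reads in all (grey, 39 of them outside the axes), with the 49 enzyme genes as large points and the length trend as a line. The 8 genes of the H3K4 methyltransferase list lie below the line, while Kdm6b and Smyd5 lie above it.

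At the other thresholds given by the study, a fold over 1.5 with a BH value of at most 0.05, 15 of the 49 genes were called lower and 0 higher. The shares over all genes were 7.74% and 4.84%. With the length trend subtracted, 6 were called lower (Kmt2d, Setd1b, Setd7, Ezh2, Kdm5b and Dnmt1) and 1, Kdm6b, was called higher, against 5.66% and 4.81% of all genes. Counting intervals lay wholly below 0 for 29 genes, wholly above 0 for 6 and spanned 0 for 14. After the trend was subtracted these numbers were 22, 11 and 16. The matching shares over all genes were not computed, so these numbers do not set the 49 genes apart from other genes.

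**Figure D2:**
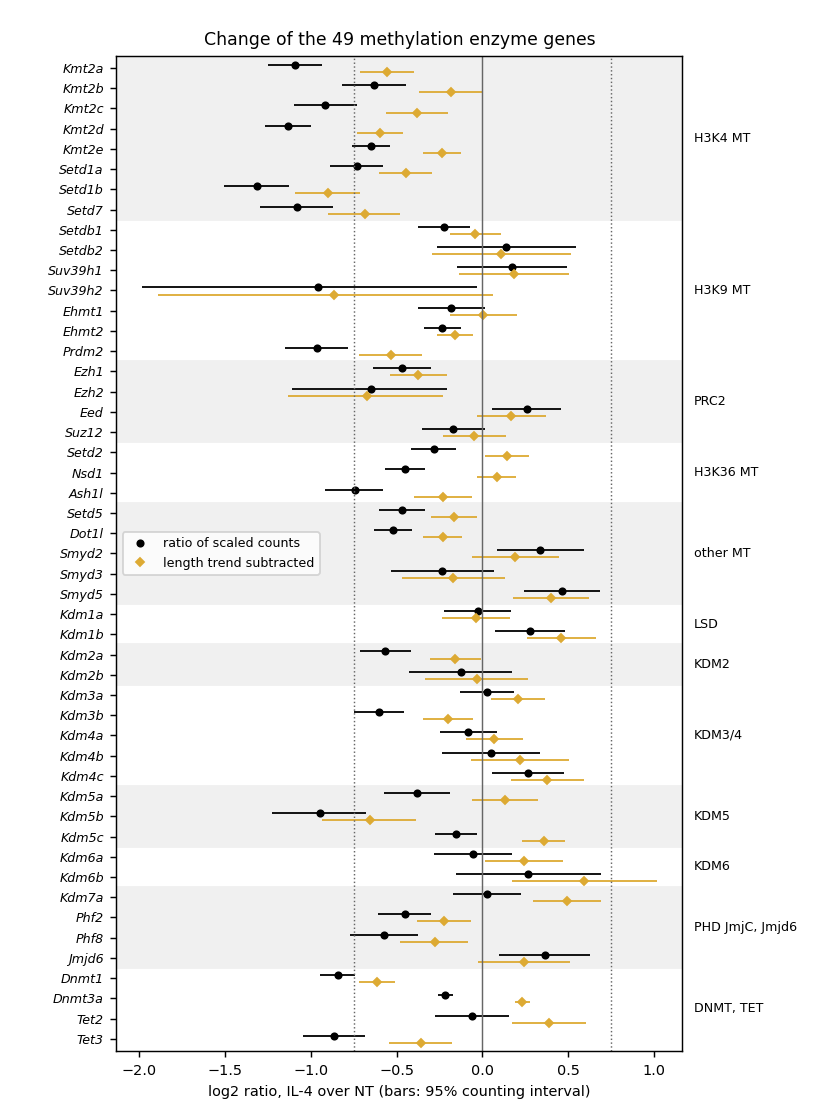
Log2 ratio of IL-4 over NT (x axis) for the 49 enzyme genes, grouped by role (right), as measured (black circles) and with the length trend subtracted (yellow diamonds). Bars are 95% counting intervals, dotted lines mark ±0.75, the 8 genes of the H3K4 methyltransferase list are below 0 both ways, and with length subtracted Setd1b (-0.90) and Suv39h2 (-0.86, interval spanning 0) lie past the dotted line.

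The H3K4 methyltransferase list had the lowest median ratio of the role lists, at -0.999. These proteins are catalytic subunits of COMPASS-type complexes, apart from Setd7, which monomethylates H3K4 and non-histone proteins, and Kmt2e, whose own activity is in doubt. All 8 genes had ratios between -1.31 and -0.63, with 5 called lower at the main thresholds (6.28% of all genes, and 21.4% of the long genes above) and 8 at a fold over 1.5 (7.74% of all genes). With the length trend subtracted, 1 was called lower at the main thresholds (4.88% of all genes) and 3 at a fold over 1.5 (5.66%). The summed level of the 8 genes went from 70.9 FPKM in NT to 39.2 FPKM in IL-4, which is 55.3% of the NT value. The 8 intervals lay below 0 after that subtraction too, with a median ratio of -0.50.

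Setd1b (chromosome 5, 123142040 to 123168630, GRCm38), which with its paralog Setd1a places much of the H3K4 trimethylation at promoters, had the lowest ratio of the 49 genes. It was counted 783.77 times in NT and 321.38 times in IL-4, or 7.90 and 3.17 FPKM. This 2.48-fold lower level is a log2 ratio of -1.31 (interval -1.51 to -1.13). Subtracting the length trend left -0.90 (interval -1.10 to -0.71). Setd1a, at 13.3 FPKM in NT and 7.99 FPKM in IL-4, stood at -0.73 (interval -0.89 to -0.58), or -0.45 less the length trend, and missed the main thresholds. The intervals of the paralogs did not overlap.

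Kmt2d (chromosome 15, 98831669 to 98874077) and Kmt2c (chromosome 5, 25271795 to 25498855) encode the methyltransferases that monomethylate H3K4 at enhancers. Kmt2d went from 6.62 FPKM in NT to 3.02 FPKM in IL-4, a log2 ratio of -1.13 (interval -1.27 to -1.002), and -0.60 with the length trend subtracted. Kmt2c went from 3.71 to 1.96 FPKM, a ratio of -0.92 (interval -1.10 to -0.73), and -0.38 with the trend subtracted. Their transcripts, of 19827 and 16820 bases, were the longest of the 49. The same trend, -0.536, was subtracted from both and from Kmt2a, because the longest genes share the same nearest genes in length. Whether this trend is enough at such lengths was not tested.

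Kmt2a (chromosome 9, 44803355 to 44881352) encodes MLL1, a methyltransferase that maintains Hox gene expression. It went from 5.51 to 2.58 FPKM, or -1.09 on the log2 scale (interval -1.25 to -0.93). Less the length trend it was -0.55 (interval -0.71 to -0.40) and was called at neither threshold. Its paralog Kmt2b, with 6.37 FPKM in NT and 4.11 in IL-4, had a ratio of -0.63. Kmt2b was the gene nearest to 0 in this list once length was subtracted, at -0.18 with an upper bound just below 0. Kmt2e was the most abundant gene of the list, at 20.5 FPKM in NT and 13.1 FPKM in IL-4, with a ratio of -0.65, or -0.23 less the length trend. In GENCODE, 13.3% of its exon bases overlap those of Srpk2 on the opposite strand, and whether the counting used strand was not given.

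Setd7 (chromosome 3, 51515318 to 51560823) went from 572 counts in NT to 275 in IL-4, which were 6.95 and 3.28 FPKM. The ratio was -1.08 (interval -1.30 to -0.87), and -0.69 with the length trend subtracted. Its transcript, of 7356 bases, was near in length to that of Kmt2e, and the intervals of their ratios did not overlap.

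None of the subunits that these complexes share was called, where 6.28% of all genes were called lower and 4.07% higher. With so few genes, the absence of calls does not set them apart from all genes. Wdr5, Rbbp5, Ash2l and Dpy30, which form the core that activates the catalytic subunit, had log2 ratios of -0.10, -0.04, -0.01 and -0.21. The 4 intervals spanned 0, but with the length trend subtracted that of Dpy30 did not, at -0.38. Their transcripts, of 706 to 3632 bases, were shorter than those of the methyltransferases. The other genes of the same complexes on the partner list (Men1, Cxxc1, Ncoa6, Paxip1, Pagr1a, Hcfc1 and Psip1) were not called either. Hcfc1 (-0.55), Ncoa6 (-0.49) and Paxip1 (-0.29) had intervals wholly below 0, and the intervals of the rest spanned 0. With the length trend subtracted, the ratios of these 3 were -0.11, -0.12 and 0.01.

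The 3 promoters shown here belong to called genes with a STAT-type palindrome in the window, and are given because IL-4 acts through Stat6. The windows run from 250 bases before to 50 after a transcription start in RefSeq (GRCm38.p6), with the match in capitals, 5′ to 3′ on the strand of the gene. The Setd7 and Suv39h2 windows lie at the 5′ end of the gene span given here, while the Kmt2d window lies at an internal start, 2872 bases inside that span. The motifs searched were TTC and GAA with any 4 bases between them, the spacing Stat6 prefers, and with any 3 bases between them, the spacing of other STATs. Each motif is its own reverse complement, so both strands were covered.

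Kmt2d, chr15:98871156-98871455, minus strand: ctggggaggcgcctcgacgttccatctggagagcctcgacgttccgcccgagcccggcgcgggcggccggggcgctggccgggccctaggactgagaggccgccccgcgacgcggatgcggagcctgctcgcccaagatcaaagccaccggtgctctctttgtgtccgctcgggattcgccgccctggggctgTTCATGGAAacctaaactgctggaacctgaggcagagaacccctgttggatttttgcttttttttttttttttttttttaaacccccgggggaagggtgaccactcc

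Setd7, chr3:51560774-51561073, minus strand: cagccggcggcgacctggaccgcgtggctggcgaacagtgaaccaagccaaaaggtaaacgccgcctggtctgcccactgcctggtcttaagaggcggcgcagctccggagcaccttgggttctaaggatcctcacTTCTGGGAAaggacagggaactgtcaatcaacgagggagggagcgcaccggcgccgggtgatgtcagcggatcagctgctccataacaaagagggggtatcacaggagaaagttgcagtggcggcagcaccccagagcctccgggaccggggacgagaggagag

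Suv39h2, chr2:3474937-3475236, minus strand: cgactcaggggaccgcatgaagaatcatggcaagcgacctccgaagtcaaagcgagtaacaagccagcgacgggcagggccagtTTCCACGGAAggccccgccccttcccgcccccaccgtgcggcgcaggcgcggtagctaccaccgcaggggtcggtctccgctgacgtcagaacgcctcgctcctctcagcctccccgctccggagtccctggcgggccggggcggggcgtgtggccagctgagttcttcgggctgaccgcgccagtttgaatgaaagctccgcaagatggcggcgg

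Promoter windows were matched for 37 of the 49 genes and for 8 of the 10 called genes. No window was matched for Smyd3, Nsd1, Kmt2e, Kdm2a, Kmt2b, Setd1b, Prdm2, Kdm5a, Ash1l, Kdm3b, Kdm4b and Kdm6b. The motif with 4 bases between was found for 2 of the 37 genes (Suv39h2 and Suz12), against 8.01% of all genes with a window. That with 3 between was found for 5 of them (Kmt2d, Setd7, Kdm3a, Phf8 and Smyd2), against 9.55% of all genes. Of the 8 called genes, 1 held the first motif and 2 the second. A match describes the letters of the window and not a site that is bound.

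Of the 3 listed H3K4 demethylases of the KDM5 family (Kdm5a, Kdm5b and Kdm5c), 1 was called lower, against 6.28% of all genes. Kdm5b (chromosome 1, 134560178 to 134632878), which removes H3K4 trimethylation, had 328 counts in NT and 173 in IL-4, or 4.66 and 2.41 FPKM. At -0.95 (interval -1.22 to -0.68) it was the only demethylase called at the main thresholds. Less the length trend it was -0.66, no longer past 0.75. Kdm5a, at 4.13 and 3.17 FPKM, had a ratio of -0.38, and Kdm5c, at 9.18 and 8.24 FPKM, had a ratio of -0.16. Their transcripts are 10969 and 11030 bases long, and with the trend subtracted their ratios were 0.13 and 0.36. Kdm5a, Kdm5b and Kdm5c summed to 17.97 FPKM in NT and 13.8 FPKM in IL-4, a log2 ratio of -0.38. The sum of the H3K4 methyltransferases had a ratio of -0.85. Kdm5d, a KDM5 gene outside the list, was not part of the KDM5 sum. It had 5.22 FPKM in NT and 4.93 FPKM in IL-4, a ratio of -0.08 that was not called. The LSD family gene Kdm1a, whose product removes mono- and dimethylation of H3K4, had 428 counts in each library. Kdm1b, the other LSD gene, had 364 and 450 counts, a ratio of 0.28 that was not called. With the length trend subtracted Kdm1b was at 0.46 (interval 0.26 to 0.66), also not called. Dek, on the opposite strand, overlaps 9.99% of its exon bases.

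Among the H3K9 methyltransferases, 2 of 7 genes were called lower, against 6.28% of all genes. With the length trend subtracted 0 were, against 4.88% of all genes. Prdm2 (chromosome 4, 143107391 to 143212769), a PR domain methyltransferase, went from 8.38 to 4.25 FPKM. This is -0.97 on the log2 scale (interval -1.15 to -0.78), and -0.54 with the length trend subtracted. Suv39h2 (chromosome 2, 3455815 to 3474986), which trimethylates H3K9 in constitutive heterochromatin, was the least abundant of the 49 genes, at 29 counts in NT and 15 in IL-4. Its ratio of -0.96 had a wide interval, from -1.98 to -0.03, and a BH value of 0.112 in the exact test. It also shares 8.25% of its exon bases with Dclre1c on the opposite strand. Its paralog Suv39h1, with 154 and 177 counts, had a ratio of 0.17 with an interval that spanned 0. Ehmt2, which encodes the H3K9 dimethyltransferase G9a, was the second most abundant of the 49 genes, at 36.1 FPKM in NT and 30.4 FPKM in IL-4, a ratio of -0.23. Its partner Ehmt1 (-0.18), and Setdb1 (-0.22) and Setdb2 (0.14), were not called.

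Of the H3K9 demethylase genes Kdm3a, Kdm3b, Kdm4a, Kdm4b and Kdm4c, none was called at the main thresholds, and their log2 ratios ran from -0.60 to 0.27. Kdm4c had the highest, and stood at 0.38 (interval 0.17 to 0.59) with the length trend subtracted. Kdm3b, at 12.4 FPKM in NT and 8.14 FPKM in IL-4, passed at a fold over 1.5, and had a ratio of -0.20 with the length trend subtracted. Its paralog Kdm3a, at 11.9 and 12.1 FPKM, had a ratio of 0.03, and the intervals of the paralogs did not overlap. The 5 genes summed to 47.1 FPKM in NT and 44.0 FPKM in IL-4.

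For H3K27, the Polycomb repressive complex 2 (PRC2) writes the mark through Ezh1 or Ezh2 with the subunits Eed and Suz12. Ezh1 was more abundant than Ezh2 in both libraries, at 14.8 against 3.66 FPKM in NT and 10.7 against 2.33 FPKM in IL-4. Neither was called at the main thresholds. Ezh2 went from 108 to 70 counts, a log2 ratio of -0.65 (interval -1.11 to -0.21) and a BH value of 0.0134 in the exact test. Its transcript has 2662 bases, and the ratio was -0.68 with the length trend subtracted. Ezh2 passed at a fold over 1.5 both ways. Ezh1 had a ratio of -0.47, or -0.37 less the length trend. Eed, at 16.4 and 19.7 FPKM, had a ratio of 0.26, and Suz12 one of -0.17, with an interval that spanned 0. Of the accessory PRC2 genes on the partner list, Phf1 was called lower, from 260 to 140 counts, and Phf19 was called higher, from 13 to 29 counts. The Phf19 ratio of 1.10 had a wide interval, from 0.14 to 2.20, and a BH value of 0.0681 in the exact test. Phf19 was not called at a fold over 1.5.

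Neither H3K27 demethylase was called at the main thresholds. Kdm6b (chromosome 11, 69398508 to 69420367) had 88 counts in NT and 108 in IL-4, or 1.18 and 1.42 FPKM, the second lowest level of the 49 genes. At 0.27 the interval ran from -0.15 to 0.69, so a change was not detectable at this depth. With the length trend subtracted the ratio was 0.59 (interval 0.17 to 1.015), which passed a fold over 1.5 but not the main threshold. Kdm6a, its paralog on the X chromosome, had 4.92 FPKM in NT and 4.73 FPKM in IL-4, a ratio of -0.06, and 0.24 with the trend subtracted. The pair summed to 6.10 and 6.15 FPKM, the lowest sum of any group here.

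The H3K36 methyltransferases Setd2, Nsd1 and Ash1l have long transcripts, and none was called at the main thresholds. Ash1l went from 757 to 460 counts, or from 5.98 to 3.57 FPKM. Their log2 ratios were -0.29, -0.45 and -0.75, the last just under the threshold before rounding. With the length trend subtracted they were 0.14, 0.08 and -0.23. The H3K36 demethylases had ratios of -0.57 (Kdm2a, -0.16 less the length trend) and -0.13 (Kdm2b, -0.03). Dot1l, the H3K79 methyltransferase, was abundant at 24.4 FPKM in NT and 17.0 FPKM in IL-4, a ratio of -0.52 that became -0.23 with the trend subtracted. Setd5, a SET domain gene, was at -0.47 and -0.17.

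Some of the shorter genes had higher values in the IL-4 library. Smyd5, a SET and MYND domain methyltransferase gene, had 293 counts in NT and 412 in IL-4, a log2 ratio of 0.46 (interval 0.24 to 0.69), the highest of the 49. It was not called, and was 0.40 with the length trend subtracted. Jmjd6 (0.36) and Smyd2 (0.34) were next, with transcripts of 1688 and 1619 bases, and their intervals included 0 once the trend was subtracted. Jmjd6 shares 10.3% of its exon bases with Mettl23 on the opposite strand. Smyd3 had a ratio of -0.24. Of the plant homeodomain finger demethylases, which remove methylation from H3K9, H3K27 or H4K20, Phf2 and Phf8 had ratios of -0.45 and -0.57, while Kdm7a had 0.03. With the trend subtracted, Kdm7a stood at 0.50 (interval 0.30 to 0.69) and the other 2 at -0.22 and -0.28.

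Among the DNA methylation enzymes, Dnmt1 and Tet3 were called lower, and Dnmt3a and Tet2 were not. Dnmt1 (chromosome 9, 20907206 to 20959888), which copies methylation to the new strand after replication, went from 2103 counts in NT to 1194 in IL-4, and in FPKM from 35.5 to 19.5. The ratio was -0.84 (interval -0.95 to -0.74), and -0.62 (interval -0.72 to -0.51) with the length trend subtracted. Of 16 cell cycle genes, 2 were called higher (Mcm2 and Ccnb1) and 0 lower, against 4.07% and 6.28% of all genes. These 16 genes summed to 368 CPM in NT and 425 CPM in IL-4. Pcna, the most abundant of the 16, weighs most in this sum, with 1854 counts in NT and 2355 in IL-4. For 13 of the 16 genes the interval spanned 0. The part of the cell cycle genes in the Dnmt1 and Ezh2 values was not tested. Uhrf1, which brings Dnmt1 to replicated DNA, had 48 and 42 counts.

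Dnmt3a, a de novo DNA methyltransferase, was the most abundant of the 49 genes, at 81.2 FPKM in NT and 70.8 FPKM in IL-4. It ranked 811 among all genes by FPKM in NT and 1038 in IL-4. The ratio was -0.22 (interval -0.26 to -0.17). With the length trend subtracted the ratio was 0.23 (interval 0.19 to 0.28), so its direction depended on the correction. Dnmt3b, the other de novo enzyme, was at 0.57 FPKM in NT and 0.44 FPKM in IL-4.

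TET enzymes start the removal of DNA methylation. Tet3 (chromosome 6, 83362373 to 83457208) went from 697 counts in NT to 390 in IL-4. The ratio was -0.86 (interval -1.05 to -0.68), and -0.36 with the length trend subtracted. Tet2, with 357 and 349 counts, had a ratio of -0.06 (interval -0.28 to 0.16). In FPKM, Tet3 was above Tet2 in NT, at 5.71 against 3.47, and in IL-4 the values were 3.13 and 3.32. Tet1 had under 3 counts in each library.

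**Figure D3:**
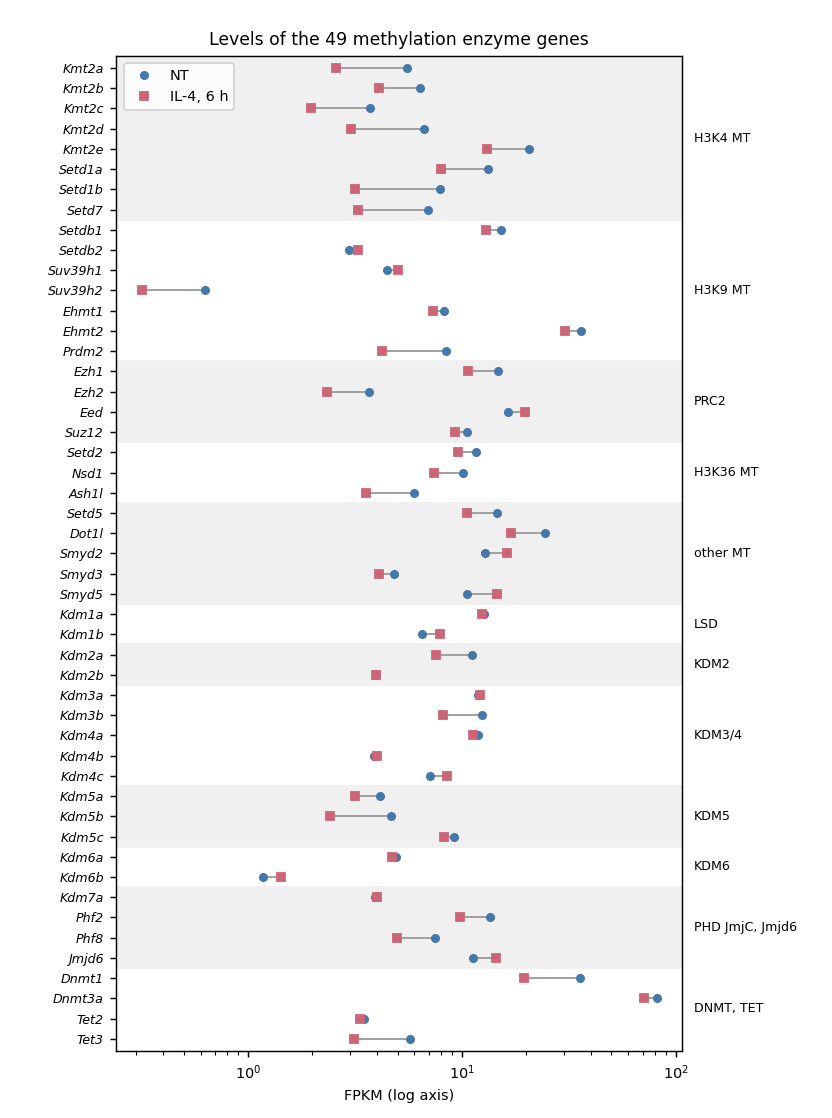
FPKM (x axis, log scale) of the 49 enzyme genes in the NT library (circles) and the IL-4 library (squares), 1 library each, grouped by role. Dnmt3a is highest, at 81.2 and 70.8, and Suv39h2 lowest, at 0.63 and 0.32.

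By summed level, the DNA methylation and TET genes held the most FPKM (126 in NT and 96.8 in IL-4), followed in NT by the H3K9 methyltransferases (76.0 and 63.5). The 27 genes of the histone methyltransferase lists, with the subunits Eed and Suz12 included, had a median log2 ratio of -0.47. With the length trend subtracted it was -0.18. The 18 genes of the demethylase lists, with Jmjd6 included, had a median of -0.07, and 0.17 with the trend subtracted. On the methyltransferase lists 7 genes were called lower, and on the demethylase lists 1, against 6.28% of all genes. With the trend subtracted these counts were 1 and 0, against 4.88%. The difference between the lists was not tested.

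**Figure D4:**
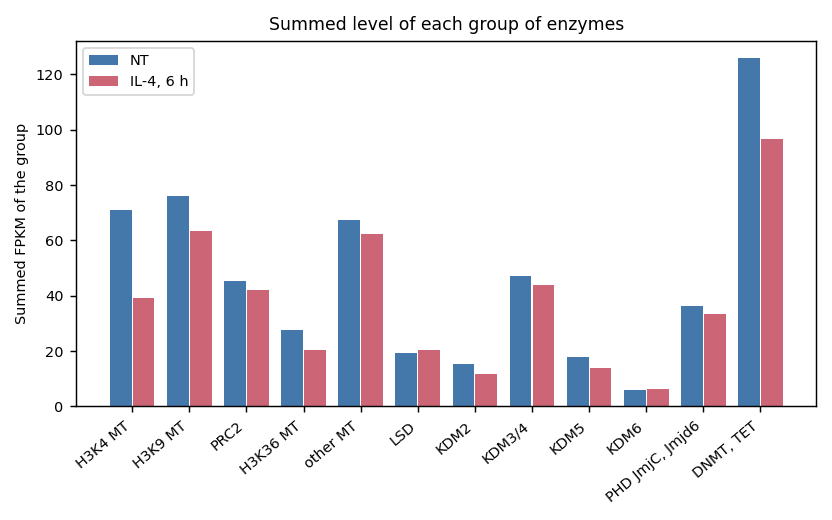
Summed FPKM (y axis) of each group of enzyme genes in the NT and the IL-4 library, 1 library each, without error bars because there were no replicates. The H3K4 methyltransferase bar drops from 70.9 to 39.2, while the KDM6 bars are level at 6.10 and 6.15.

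The mix of transcripts behind a gene was compared through the gene length in each table, which RSEM weights by transcript abundance. Of the 18 enzyme genes with several transcripts, 3 (Kdm2b, Dnmt1 and Dnmt3a) differed in length by more than 1% between the tables. This was 16.7%, against 26.3% of the 4417 such genes among all genes listed in both. Kdm2b, an H3K36 demethylase that also recruits Polycomb complexes to CpG islands, had the largest shift, from 4394.66 bases in NT to 4002.43 bases in IL-4. Its 2 transcripts are 5180 and 3532 bases long in GENCODE, with coding lengths of 3927 and 2328 bases. The weighted lengths correspond to a share of the longer transcript of 52.3% in NT and 28.5% in IL-4, if the authors' annotation had these lengths. The gene had 194 and 181 counts, and 10.7% of its exon bases overlap Rnf34 on the opposite strand. RSEM gives no error for the share here, so the shift was not tested. Dnmt1 lengthened by 1.08% and Dnmt3a shortened by 1.25%.

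Other methylation enzymes, not among the 49, were compared in the same way. Of 32 tested, among them Nsd2, Nsd3, Kmt5a, Jmjd1c and the arginine methyltransferases, 0 were called in either direction at the main thresholds or at a fold over 1.5. The shares over all genes were 6.28% lower and 4.07% higher at the main thresholds, and 7.74% and 4.84% at a fold over 1.5. With the length trend subtracted, 1 was called lower at a fold over 1.5 (5.66% of all genes). It was the H4K20 methyltransferase gene Kmt5c (361 and 253 counts). The 32 genes had a median transcript length of 2754 bases and a median log2 ratio of 0.02. Of 27 partner subunit and cofactor genes, 1 was called lower (Phf1) and 1 higher (Phf19) at the main thresholds, with a median of -0.05. Of 13 reader genes, which encode proteins that bind methylated histones or DNA, 1 was called lower (Cbx6, 45.67 and 27.45 counts), with a median of -0.21.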

How the data were processed

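RNA from 1 NT and 1 IL-4 sample, grouped by title, was sequenced on an Illumina HiSeq. Bowtie mapping (GRCm38/mm10) and RSEM quantification over RefSeq transcripts were done by the authors, versions not given in the sources used here. The deposited tables hold expected counts, FPKM values scaled by the authors for length and depth, and a weighted gene length. Genes absent from a table were set to 0, and 15587 of 15623 gene numbers were matched to symbols through RefSeq (GRCm38.p6).

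Log2 ratios used counts scaled to the library totals with 0.5 added. Counts rounded to whole numbers were tested over all genes by an exact conditional binomial test, two-sided by doubling the smaller tail, and Benjamini-Hochberg adjustment. Intervals are Clopper-Pearson at 95%. The smallest level shown by 3 counts was 0.272 CPM in NT and 0.267 CPM in IL-4. PCR reads are not independent molecules, so intervals may be too narrow. For the length trend, the median over the 300 genes closest in length (at least 200 reads) took the place of equal levels in the ratio, the interval and the test. Non-whole counts, which mark reads shared with another gene, occurred in 14 of the 49 genes.

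All 49 genes are accounted for. Values are given for those called under any of the thresholds and for the 5 highest by FPKM, and the rest are given by group. Members and lists were chosen with earlier results of these data known. Alternatives were TMM (edgeR 4.0.16) and median-of-ratios scaling (DESeq2 1.42.0), FPKM with a constant added, other thresholds, a count filter, and edgeR's exact test at a coefficient of variation that was assumed. The procedure was tested on simulated data. Python 3.11.15, scipy 1.17.1 and R 4.3.3 were used.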

Additional observations from a re-analysis of the deposited data

How the results depend on the processing

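No paired analysis was possible because NT and IL-4 had 1 sample each. Of the 49 enzyme genes, 10 were called lower and 0 higher at the main settings, with a median log2 ratio of -0.29. Of all genes tested, 6.28% were called lower. The number of enzyme genes called lower was 1 with the length trend subtracted (4.88% of all genes), 6 with FPKM plus 1 (2.56%), and 4 where the log2 ratio had to reach 1 with a BH value up to 0.05 (3.05%). It was 5 and 0 when a coefficient of variation of 0.2 (2.71%) or 0.4 (0.0513%) was assumed. It was 6 at a fold over 1.5 with the length trend subtracted (5.66%), where 1 was called higher (4.81%). The fold threshold alone gave 15 (7.74%), and both scalings, FPKM plus 0.1 and the count filter gave numbers within 1.5 times of 10. The median was -0.05 with the length trend subtracted. Summed in CPM in place of FPKM, the log2 ratio was -0.91 for the H3K4 methyltransferases (-0.85 in FPKM). It was -0.30 for the other lysine methyltransferase genes (-0.11 in FPKM) and -0.26 for the plant homeodomain group with Jmjd6 (-0.12 in FPKM). CPM gives long genes more weight, and for the remaining shifts the cause was not tested.

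The ratio changed sign with the length trend subtracted, under both thresholds, for Ehmt1 (0.01), Setd2 (0.14), Nsd1 (0.08), Kdm4a (0.07), Kdm5a (0.13), Kdm5c (0.36), Kdm6a (0.24), Dnmt3a (0.23) and Tet2 (0.39), none of them called. It also changed for Kdm1a with TMM (0.01) and median-of-ratios scaling (0.00), and for Kdm2b with FPKM plus 0.1 (0.01) or plus 1 (0.01). Suv39h2 lost its call with TMM scaling and under 7 other alternatives. Of 538 comparisons of a gene with an alternative, 467 kept their direction and side of the threshold, 41 lost the call, 8 gained one and 22 changed sign. Only the 10 genes called at the main settings could lose a call, and the 467 include genes called under neither setting. Depth limits Suv39h2, Ezh2 and Kdm6b most.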
